A study of Homo sapiens with 20 samples.

Results

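A set of 2241 strong CTCF-binding sites had a CTCF peak in both LNCaP control libraries and in both standard IMR90 control libraries. After CTCF siRNA they lost it from both LNCaP peak lists and kept it in both standard IMR90 lists. They were taken from 33377 sites on chromosomes 1 to 22 and X, formed by merging overlapping peaks of both LNCaP control lists and keeping those with a peak in each. The strength of a site is the mean, over both control lists, of the largest peak fold enrichment within it, where fold enrichment is the peak caller's ratio of signal to local background. Of these sites, 7453 reached a strength of 20, and 7092 of those also had a peak in both IMR90 control lists. The members were selected on the measured peaks and fold enrichments of these 8 standard CTCF libraries, so their values in those libraries are given as a description and not as a test.

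CTCF is a zinc finger protein that binds a long DNA motif and halts the cohesin ring as it extrudes chromatin loops, so that pairs of bound sites mark loop anchors and the borders of topological domains. It also insulates enhancers from promoters, and its binding can be blocked by methylation of CpG dinucleotides within the motif. When cells are depleted of CTCF, sites differ in whether a peak can still be found, and the study called those that stay persistent. LNCaP is a prostate cancer cell line that responds to androgen, and IMR90 is a line of normal lung fibroblasts.

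The series holds 20 ChIP-seq libraries in 10 conditions, with 2 libraries each. LNCaP cells received 20 nM of a pool of non-targeting siRNA (control siRNA) or of CTCF siRNA for 144 h. They were assayed for CTCF, H3K27ac and H3K4me3. IMR90 cells received the same pools for the same time, but by the study's methods with a different transfection reagent. A split and second transfection partway are described for LNCaP. The IMR90 cells were assayed for CTCF by a standard protocol and, in separate libraries, by a low-cell kit with molecular identifiers. No genetic change is given for either line, and by the labels the 2 conditions of each assay differ only in the siRNA pool. The study's methods call the standard ChIP-seq replicates biological duplicates, while the labels do not say which steps were separate, so a p-value measures the spread between these libraries, and with 2 libraries against 2 the exact permutation test cannot go below p = 0.33. The files analysed hold no CTCF mRNA or protein level. The study measured the knockdown by separate assays that are not analysed here. It reports a smaller loss of CTCF mRNA in IMR90 than in LNCaP. The part of a difference in knockdown between the lines was not tested. The LNCaP lists held 37969 and 46293 CTCF peaks after control siRNA and 3711 and 7716 after CTCF siRNA. The standard IMR90 lists held 35717 and 36887 peaks after control siRNA and 19177 and 18533 after CTCF siRNA. The low-cell IMR90 lists held 20179 and 19097 peaks after control siRNA and 5086 and 1941 after CTCF siRNA. A growth note attached to the standard IMR90 libraries names LNCaP, so the line was checked on sites bound in 1 line only. Of 3603 sites found in both standard IMR90 control lists and neither LNCaP control list, the standard IMR90 CTCF siRNA lists held 14.6% and 12.1%, the low-cell control lists 9.91% and 9.63%, the low-cell CTCF siRNA lists 0.416% and 0.0278% and the LNCaP CTCF siRNA lists 0.111% and 0.888%. Of 6351 sites found in both LNCaP control lists and neither standard IMR90 control list, the LNCaP CTCF siRNA lists held 1.79% and 2.98%. The standard IMR90 CTCF siRNA lists held 1.04% and 0.945% of them, the low-cell control lists 4.41% and 4.0%, and the low-cell CTCF siRNA lists 1.09% and 0.409%. The low-cell control lists and the standard IMR90 CTCF siRNA lists thus held a larger share of IMR90-only than of LNCaP-only sites. The short low-cell CTCF siRNA lists, with 15 and 1 against 69 and 26 sites, did not. The line of those last libraries therefore rests on the study's description of them. The peak files do not hold sequencing depth. By the study's own library list, LNCaP CTCF siRNA replicate 1 had far fewer reads than the other standard CTCF libraries of either line, also with its second run added, LNCaP CTCF siRNA replicate 2 had about as many as the standard IMR90 libraries, and the low-cell libraries of both treatments had similar numbers to each other, well below the standard IMR90 ones. The part of read depth in the missing peaks was not tested.

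The core motif and its surroundings are shown for the strongest members that lie in introns or between genes, since the motif is the element that CTCF reads. Each line holds 60 bases of hg19, written 5′ to 3′ along the strand of the match, with the 14 bases of the best match to the CTCF core consensus motif in capitals. The 3 strongest such sites kept in both lines and the 3 strongest lost in both lines, chosen under the same limits, follow for comparison.
Member near VPS8: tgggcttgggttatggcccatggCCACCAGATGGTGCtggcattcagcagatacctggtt
Member in MEGF6: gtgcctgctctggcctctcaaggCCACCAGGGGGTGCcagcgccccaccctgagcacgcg
Member in CFAP45: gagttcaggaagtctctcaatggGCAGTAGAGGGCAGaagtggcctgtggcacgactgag
Member in GTF2IRD1: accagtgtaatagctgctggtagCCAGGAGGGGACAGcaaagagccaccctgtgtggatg
Member beside SLC45A3: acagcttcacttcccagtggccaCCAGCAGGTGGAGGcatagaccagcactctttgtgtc
Member near TMEM106A: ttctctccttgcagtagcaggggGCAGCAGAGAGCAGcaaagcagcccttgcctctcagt
Kept in both lines, near IL3: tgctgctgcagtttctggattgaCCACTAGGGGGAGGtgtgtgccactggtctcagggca
Kept in both lines, near ASPG: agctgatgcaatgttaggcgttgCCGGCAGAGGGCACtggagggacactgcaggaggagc
Kept in both lines, in PACS1: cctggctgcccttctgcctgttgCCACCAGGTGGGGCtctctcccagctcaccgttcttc
Lost in both lines, in ZEB1: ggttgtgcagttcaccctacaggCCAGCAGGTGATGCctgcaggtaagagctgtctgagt
Lost in both lines, near SLC12A7: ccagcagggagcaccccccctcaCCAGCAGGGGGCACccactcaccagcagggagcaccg
Lost in both lines, near MCTP2: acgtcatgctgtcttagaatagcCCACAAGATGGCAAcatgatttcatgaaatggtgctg

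Of the matches shown, 0 of 6 at members, 1 of 3 at sites kept in both lines (near ASPG) and 0 of 3 at sites lost in both lines held a CpG, but exonic sites were left out, and among the 12 strongest members 10 had a match and 3 of those held a CpG. The VPS8 stretch lies at chr3:184521191-184521250 on the minus strand, 8690 bp outside the gene. The MEGF6 stretch is intronic, at chr1:3481947-3482006 on the plus strand, and the CFAP45 stretch is intronic, at chr1:159861543-159861602 on the minus strand. The GTF2IRD1 stretch is intronic, at chr7:73981244-73981303 on the minus strand. The SLC45A3 stretch, at chr1:205626832-205626891 on the minus strand, belongs to a site whose summit lay 91 bp outside the gene, and the TMEM106A stretch, at chr17:41387266-41387325 on the minus strand, to one 15237 bp from its nearest protein-coding gene. The comparison stretches are at chr5:131400536-131400595 (plus strand), chr14:104544431-104544490 (plus strand), chr11:65990293-65990352 (plus strand), chr10:31757357-31757416 (minus strand), chr5:1140573-1140632 (minus strand) and chr15:94663318-94663377 (minus strand), in the order shown, with SLC12A7 and MCTP2 named as the nearest protein-coding genes, 28447 and 111415 bp away. The matches near VPS8, in MEGF6, in CFAP45 and beside SLC45A3 had 1 mismatch to the consensus, and those in GTF2IRD1 and near TMEM106A had 2.

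The first question is how the 2241 members stand among strong sites that both lines bind. They made up 31.6% of the 7092. A further 2040 sites (28.8%) had a peak in LNCaP CTCF siRNA replicate 2 but not in replicate 1 and were kept in both IMR90 lists, and 2010 (28.3%) kept a peak in both CTCF siRNA lists of both lines. Only 250 (3.53%) had no CTCF siRNA peak in either line, and 63 (0.888%) were kept in LNCaP replicate 1 alone. Over all 33377 sites 78.6% had no peak in either LNCaP CTCF siRNA list, against 41.4% of the 7453 strong sites, and 89.6% of the 7092 kept a peak in both IMR90 lists. Those shares were used by the rule, and nothing is read from them. The reverse pattern, a strong IMR90 site bound in LNCaP that lost both IMR90 peaks and kept both LNCaP peaks, was found at 0 of 7556 sites.

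The number of members depended on the lengths of the peak lists. When each IMR90 CTCF siRNA list was shortened by p-value to the length of the LNCaP list with the same replicate number, 368 sites met the rule in place of 2241, and 1223 of the original members (54.6%) had no peak in either shortened IMR90 list. At those lengths 217 strong LNCaP sites bound in IMR90 showed the opposite pattern, with both LNCaP peaks and neither IMR90 peak. The reverse count of 0 above was taken over sites strong in IMR90, so it is not directly comparable. With all 8 lists shortened to the 3711 peaks of the shortest, 216 sites met the rule. Leaving LNCaP CTCF siRNA replicate 2 out of the rule raised the count to 4281, while leaving out replicate 1 gave 2304.

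The share of members was lower among stronger sites. They were 41.4% of the 3155 sites with strength from 20 to 25, 30.4% of the 1860 from 25 to 30, 21.1% of the 1618 from 30 to 40 and 5.88% of the 459 at 40 or more. Sites kept in both lines ran the other way over the same steps, from 19.7% to 54.5%. Members were spread over every chromosome analysed, from 26.4% of the strong IMR90-bound sites on chromosome 18 to 41.0% on chromosome 21, with a median over chromosomes of 32.3%.

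**Figure D1:**
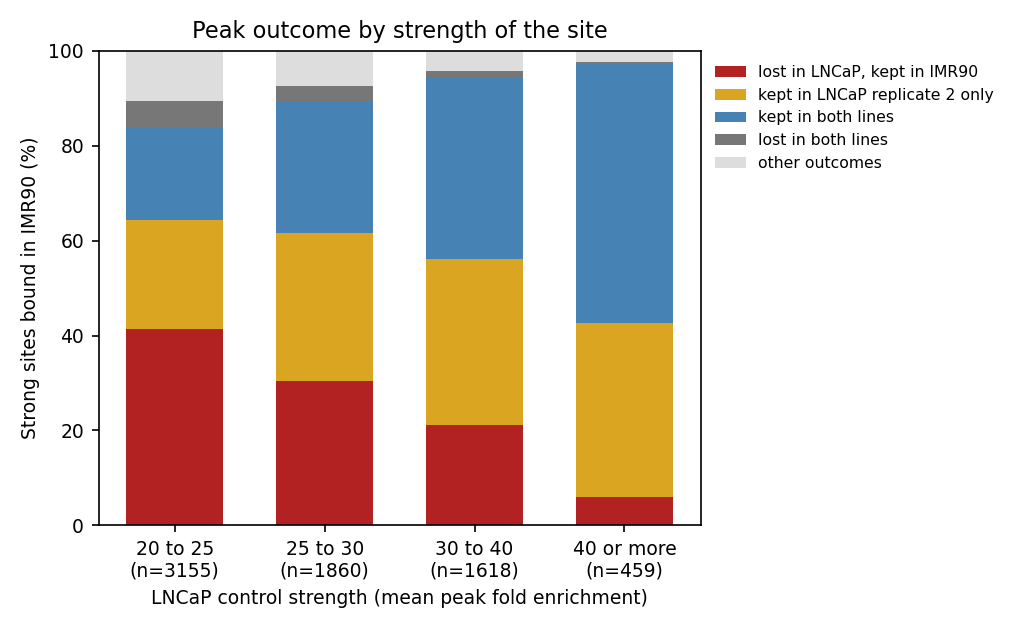
Stacked bars give the percentage of strong LNCaP sites bound in IMR90 (y axis) by peak outcome after CTCF siRNA, in 4 steps of LNCaP control strength (x axis, mean peak fold enrichment, no unit). The red part, the members, goes from 41.4% to 5.88% as strength rises and the blue part, sites kept in both lines, from 19.7% to 54.5%.

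In LNCaP control cells the members had a median fold enrichment of 21.7 in replicate 1 (lowest 11.4, highest 67.8) and 27 in replicate 2 (lowest 9.02, highest 59.8). Replicate 2 was the higher at 85.0% of members, with a median ratio of 1.25. In standard IMR90 control cells the medians were 21.7 and 22.7, and 1383 of them (61.7%) also had a mean IMR90 control fold enrichment of 20 or more. The ratio of LNCaP to IMR90 control fold enrichment had a median of 1.12 and ranged from 0.433 to 5.18. The summits of the 2 lines lay within 50 bp of each other at 98.0% of members, with a median offset of 11.0 bp.

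Members stayed in the standard IMR90 lists after CTCF siRNA but mostly at lower fold enrichment. The medians were 13.4 and 12.2 in the CTCF siRNA lists, and the ratio of CTCF siRNA to control was below 1 at 1870 members (83.4%) in replicate 1 and 2013 (89.8%) in replicate 2. The median ratio over both replicates was 0.605 (quartiles 0.455 and 0.795). The same ratio was 0.801 at sites kept in LNCaP replicate 2 only and 1.03 at sites kept in both lines, and the quartiles of members and of sites kept in both lines only just failed to overlap, at 0.795 and 0.796.

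**Figure D2:**
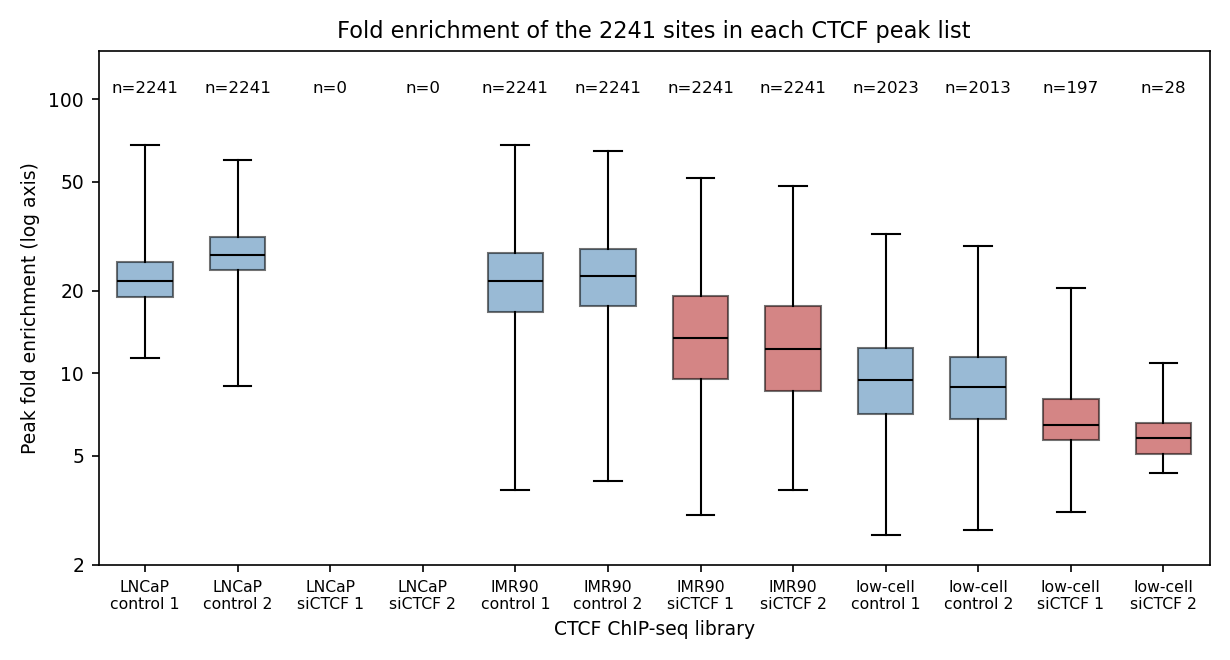
Boxes give the peak fold enrichment (y axis, log scale, no unit) of the members in each of the 12 CTCF libraries (x axis), with the median, the quartiles and whiskers to the lowest and highest value, and n is the number of members with a peak. The LNCaP CTCF siRNA lists hold 0 members by the rule, the standard IMR90 medians go from 21.7 and 22.7 to 13.4 and 12.2, and the low-cell CTCF siRNA lists hold 197 and 28 members.

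The low-cell libraries, IMR90 by the study's description, took no part in the selection and were used to ask whether the members keep a peak there. Most members had none after CTCF siRNA. A low-cell peak was found at 90.3% of members (95% Wilson interval 89.0 to 91.4) in control replicate 1 and at 89.8% (88.5 to 91.0) in control replicate 2. After CTCF siRNA it was found at 8.79% (7.69 to 10.0) in replicate 1 and at 1.25% (0.866 to 1.8) in replicate 2. The mean share went from 90.0% ± 0.316 (SD, n = 2) to 5.02% ± 5.33 (SD, n = 2), a difference of -85.0 percentage points by the two-sided exact permutation test (p = 0.33, its lower bound here). The control and CTCF siRNA libraries did not overlap, which also held for every other class of site and for all sites. Over the 7092 strong IMR90-bound sites the shares were 90.2% and 88.7%, then 33.9% and 14.9%, a difference of -65.1. Over all 33377 sites they were 52.6% and 50.5%, then 13.6% and 5.3%, a difference of -42.1. The intervals here and below cover counting error over sites only.

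Of 1912 members with a peak in both low-cell control lists, 1716 (89.7%) had none in either low-cell CTCF siRNA list. The background was 60.7% of the 6089 strong IMR90-bound sites with both low-cell control peaks and 71.1% of the 15379 LNCaP control sites of any strength with both. Only 26 members (1.16%) had a peak in all 4 low-cell lists, and 116 (5.18%) had none in any. The name "lost only in LNCaP" describes the standard libraries and did not carry over to the low-cell CTCF siRNA lists. The IMR90 line of those libraries rests on the study's description, and their lists held only 5086 and 1941 peaks. The absent peaks therefore cannot be read as loss of binding in IMR90. The 2 IMR90 protocols also differed in kit, read handling and list length, which cannot be told apart here.

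The other classes of strong sites differed from the members in the same low-cell lists. Sites kept in both lines had a low-cell peak at 97.8% and 97.3% in the control lists and at 74.0% and 41.0% after CTCF siRNA. Sites kept in LNCaP replicate 2 only had 96.1% and 94.6%, then 33.4% and 8.97%. Sites lost in both lines had 29.6% and 28.0%, then 0.0% and 0.0%, where 0 of 250 allows up to 1.51%. At matched LNCaP control strength the gap between members and sites kept in both lines remained. Strength in IMR90 was not matched: the standard IMR90 control medians were 21.7 and 22.7 at members and 26.3 and 27.7 at sites kept in both lines. A peak in at least 1 low-cell CTCF siRNA list was found at 9.87% of members (8.37 to 11.6, 129 of 1307) and 75.6% of kept sites (72.1 to 78.8, 471 of 623) with strength from 20 to 25. At strength 30 to 40 it was found at 7.92% (5.5 to 11.3, 27 of 341) and 74.1% (70.5 to 77.4, 461 of 622). Among the 27 members with strength of 40 or more it was found at 0, which allows up to 12.5%.

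The low-cell CTCF siRNA lists were much shorter than their controls, so the control lists were also shortened by p-value to the same lengths, a step chosen after the data were seen. The shortened control lists held 26.6% and 10.2% of members, each above the 8.79% and 1.25% in the CTCF siRNA lists of the same length, a mean difference of -13.4 percentage points. Sites kept in LNCaP replicate 2 only went the same way as members. They had 43.8% and 18.6% in the shortened control lists and 33.4% and 8.97% after CTCF siRNA. For sites kept in both lines the order was the reverse, with 57.8% and 27.6% in the shortened control lists and 74.0% and 41.0% after CTCF siRNA.

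**Figure D3:**
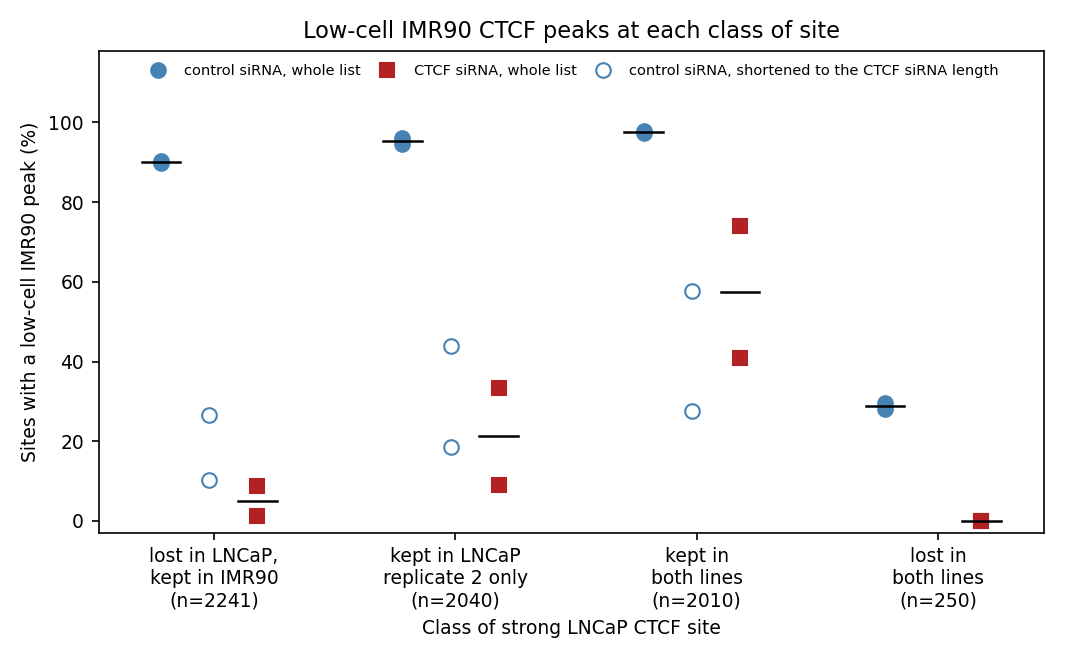
Points give the percentage of sites with a low-cell IMR90 CTCF peak (y axis) in each of the 4 low-cell libraries, by class of strong LNCaP site (x axis), with black bars at the mean of the 2 libraries and open circles for control lists shortened to the length of the CTCF siRNA list. Members go from 90.3% and 89.8% to 8.79% and 1.25%, while sites kept in both lines go from 97.8% and 97.3% to 74.0% and 41.0%.

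The motif was a further readout that the rule did not use. A match to the core consensus with up to 2 mismatches, on either strand and within 100 bp of the summit, was present at 1855 of 2241 members (82.8%, interval 81.2 to 84.3), against 6.43% of windows of the same length taken 1000 bp away. The share was 87.4% (85.9 to 88.8) at sites kept in LNCaP replicate 2 only, 92.0% (90.8 to 93.1) at sites kept in both lines and 77.2% (71.6 to 82.0) at sites lost in both lines. It was 73.7% over all 33377 sites and 86.8% over the 7092 strong IMR90-bound sites, so members lay above the first and below the second. A match without mismatches was found at 15.3% of members (13.8 to 16.8), 23.5% of sites kept in LNCaP replicate 2 only and 27.5% of sites kept in both lines (25.6 to 29.5), against 11.8% over all sites and 20.8% over the 7092 strong IMR90-bound sites. Weaker matches made up the rest, since 36.2% of members had 1 mismatch, 31.3% had 2 and 17.2% had no match. Across members, sites kept in LNCaP replicate 2 only and sites kept in both lines, the order of exact matches was the same within each step of strength. At strength 20 to 25 the shares were 14.8%, 25.7% and 27.3%. At 40 or more, with only 27 members, they were 14.8%, 18.3% and 29.6%. Sites lost in both lines were not split by strength here.

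Matches at members also held a CpG less often. The share with a CpG inside the 14 bases was 29.7% at members (27.7 to 31.8, 551 of 1855), 40% (37.8 to 42.3) at sites kept in LNCaP replicate 2 only, 48.4% (46.1 to 50.7) at sites kept in both lines and 19.2% (14.2 to 25.3) at sites lost in both lines. Over all LNCaP control sites of any strength it was 29.9%, close to the members. Over the 7092 strong IMR90-bound sites, from which the members come, it was 38.2%. Members lay below that share, and sites kept in LNCaP replicate 2 only lay near it. The window around the summit had a median of 3.0 CpG at members and 5.0 at sites kept in both lines, with a median GC content of 52.2% and 53.7%. DNA methylation was not measured in these libraries. Matches lay on the plus strand at 51.5% of members, and their centre was a median of 12.5 bp from the summit, compared with 49.2% and 15.5 bp at sites kept in both lines. The 1855 member matches comprised 1083 distinct 14-base sequences, and the commonest, CCACCAGAGGGCAG, occurred at 27 members, whereas the commonest at sites kept in both lines was CCAGCAGAGGGCAG, at 32.

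**Figure D4:**
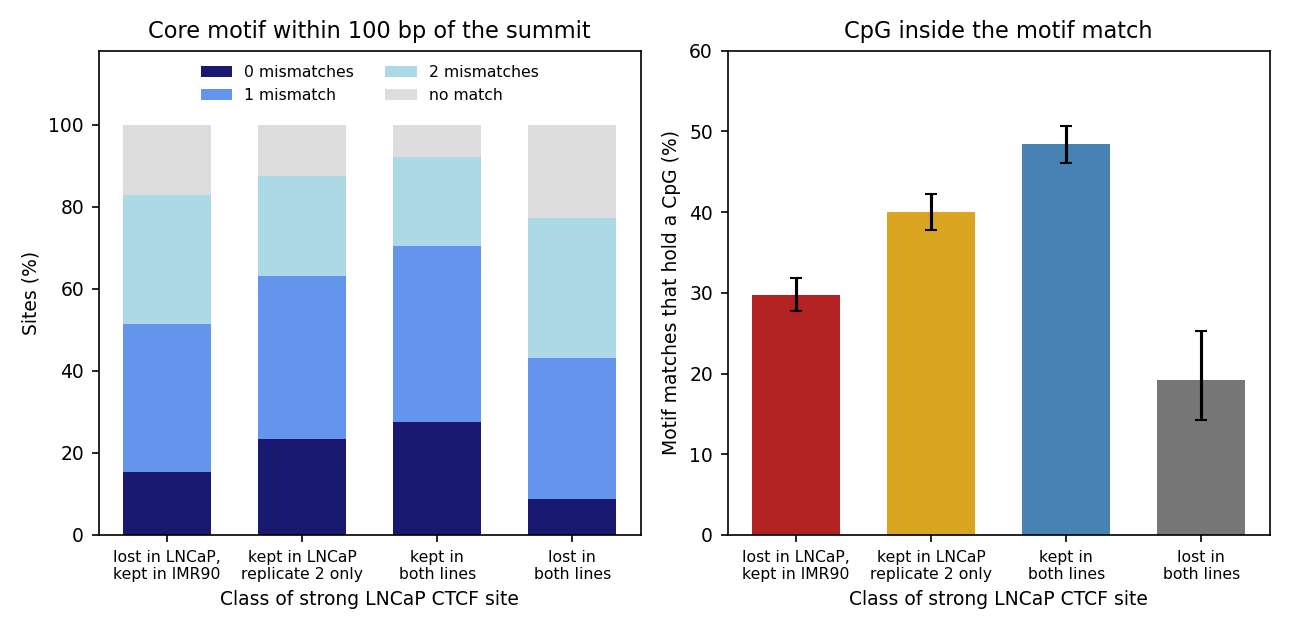
The left panel stacks the percentage of sites (y axis) by mismatches of the best core motif match in each class of strong site (x axis), and the right panel gives the percentage of matches that hold a CpG, with 95% Wilson intervals. Members fall between sites lost in both lines and sites kept in both lines in each panel, with 15.3% exact matches and 29.7% of matches holding a CpG.

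Within the members, the few that stayed in the low-cell lists had values nearer to those of kept sites. The 199 members with a peak in at least 1 low-cell CTCF siRNA list had a median IMR90 ratio of 0.914, an exact match at 22.1% and a CpG in 47.2% of matches. The 1716 members with both low-cell control peaks and none after CTCF siRNA had a ratio of 0.597, an exact match at 16.7% and a CpG in 28.2% of matches. The median LNCaP strength of these groups was close, at 23.3 and 24.4. A low-cell CTCF siRNA peak was found at 15.1% of members whose match held a CpG (12.3 to 18.3) and at 7.13% of those whose match did not (5.86 to 8.66). It was found at 19.7% of the 157 members within 1000 bp of a transcription start (14.3 to 26.7) and at 8.06% of the 2084 farther away (6.97 to 9.31).

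Most members lay away from promoters. A transcription start of a protein-coding or long non-coding gene was within 1000 bp of 157 members (7.01%, interval 6.02 to 8.14), compared with 8.26% (7.13 to 9.54) of sites kept in both lines and 7.77% of all sites. By the position of the summit, 1228 members (54.8%) were intronic, 718 (32.0%) intergenic, 115 (5.13%) in a UTR, 56 (2.5%) in a coding exon and 124 (5.53%) in another exon. Over all 33377 sites 52.9% were intronic and 37.4% intergenic, so the members lay near the overall intronic share, while sites kept in both lines were 42.2% intronic and 49.7% intergenic. The median width of a member was 491 bp, and the nearest other control site was a median of 16200 bp away. Of the members, 107 (4.77%) lay within 10000 bp of a site kept in both LNCaP CTCF siRNA lists, near the 4.55% of all LNCaP control sites and below the 8.86% of sites kept in both lines, and 105 members (4.69%) lay within 10000 bp of another member.

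H3K27ac, a mark of active enhancers and promoters, was examined at the members in LNCaP before and after CTCF siRNA. An H3K27ac region overlapped 23.5% and 20.3% of members in the control lists and 21.1% and 26.3% in the CTCF siRNA lists. The groups overlapped, and the difference of 1.81 percentage points was within the spread between replicates (21.9% ± 2.27 and 23.7% ± 3.69, SD, n = 2, two-sided exact permutation test, p = 0.67). Both control lists marked 392 members (17.5%), against a background of 15.6% of all sites. Of the members, 40 (1.78%) had the mark in both control lists and neither CTCF siRNA list, against 1.03% of all sites. The opposite was seen at 53 (2.37%), against 2.07%.

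H3K4me3, which marks active promoters, overlapped 11.1% and 14.1% of members in the control lists and 10.5% and 15.2% in the CTCF siRNA lists. The difference of 0.245 percentage points was also within the spread (two-sided exact permutation test, p = 1.00). Both control lists marked 232 members (10.4%), against 12.8% of all sites. Loss from both control lists and gain in both CTCF siRNA lists were each seen at 16 members (0.714%), against 0.5% and 0.95% of all sites.

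Members and sites kept in both lines differed in these marks in every LNCaP histone library. H3K27ac was more frequent at members in 4 of 4 libraries, by 8.79 and 7.42 percentage points after control siRNA and 4.14 and 5.38 after CTCF siRNA. H3K4me3 was less frequent in 4 of 4, with differences of -4.51 and -8.19, then -9.81 and -16.3. The means over the 4 libraries, which mix both treatments, were 6.43 ± 2.07 and -9.7 ± 4.92 (SD, n = 4). The two-sided exact permutation test over sign changes, also over both treatments, gave p = 0.125 for each mark, the smallest that 4 libraries allow. Against sites kept in LNCaP replicate 2 only, the H3K27ac differences were 1.65 and 0.00932 after control siRNA and -1.34 and -0.731 after CTCF siRNA (mean -0.103 ± 1.3, SD, n = 4, exact p = 1.0). Members had less H3K4me3 than those sites in 4 of 4 libraries (-4.5 ± 1.14, SD, n = 4, exact p = 0.125). The CTCF siRNA lists held more regions than the control list with the same number for both marks, from 41107 against 36492 for H3K4me3 replicate 1 to 98973 against 69949 for H3K27ac replicate 2, and the part of list length in these shares was not tested.

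**Figure D5:**
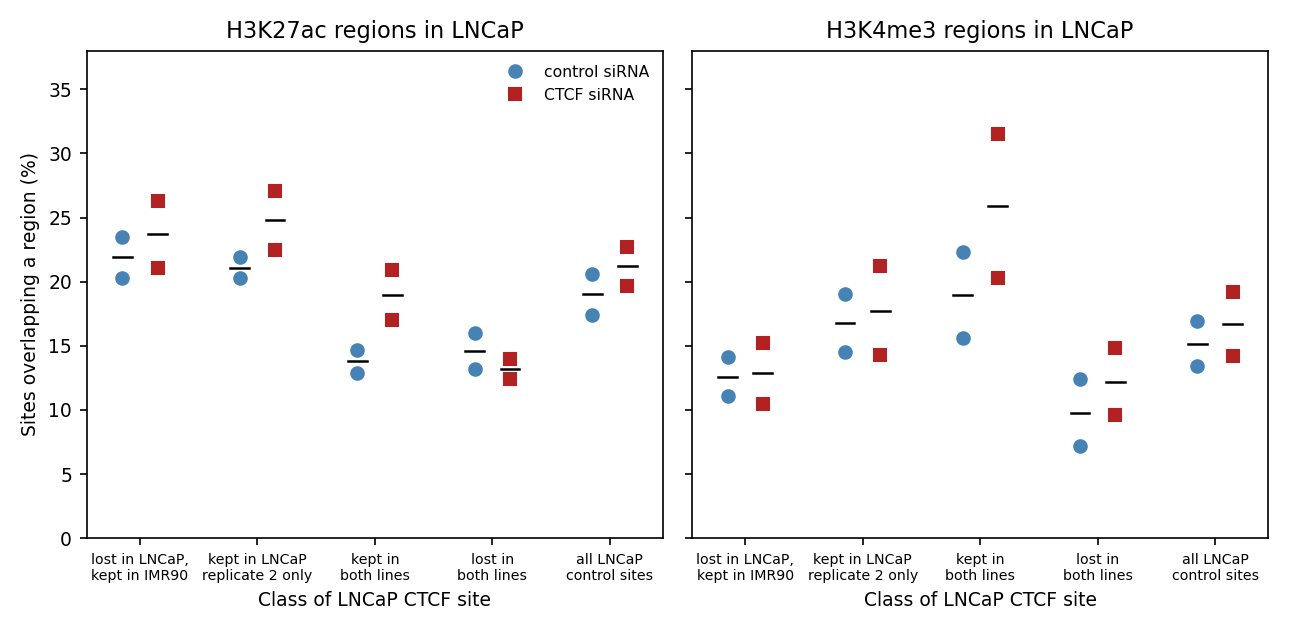
Points give the percentage of sites (y axis) that overlap an H3K27ac (left) or H3K4me3 (right) region in each LNCaP library, by class of site (x axis), with black bars at the mean of the 2 libraries of a treatment. At members the control and CTCF siRNA points overlap for both marks (20.3% to 26.3% and 10.5% to 15.2%), and at sites kept in both lines H3K4me3 runs from 15.6% to 31.5%.

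The strongest member lay between genes on chromosome 3 at chr3:184520796-184521488, and VPS8, which encodes a subunit of an endosomal tethering complex, was 8690 bp away. Its fold enrichment was 49.5 and 54.2 in LNCaP control cells, 41.0 and 51.2 in IMR90 control cells and only 6.74 and 6.58 in the IMR90 CTCF siRNA lists, a ratio of 0.144. Its low-cell control peaks were 7.17 and 10.8, with no peak in either low-cell CTCF siRNA list. The next, at chr1:3481491-3482330 in an intron of MEGF6, behaved otherwise in the standard IMR90 lists, where its values were 35.3 and 28.0 before and 32.5 and 29.2 after CTCF siRNA. It too had low-cell control peaks (19.9 and 15.2) and none after CTCF siRNA.

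All of the 12 strongest members had a peak in both low-cell control lists and in neither low-cell CTCF siRNA list. Their standard IMR90 ratio of CTCF siRNA to control was below 1 at 11 of the 12. The site in STAT3, a transcription factor of cytokine signalling, at chr17:40474689-40475378, was the only one of the 12 with an exact motif match, and its IMR90 values went from 42.6 and 48.2 to 18.6 and 11.6. The site in the TRAF4 UTR at chr17:27076991-27077653 had the highest IMR90 control values of the 12, at 68.2 and 61.1, which became 35.9 and 31.4, and lay in H3K27ac in all 4 lists. The BAIAP2 site at chr17:79075060-79076010 owes its place to 1 control library, with 67.8 in replicate 1 and 28.3 in replicate 2.

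The threshold of 20 cut through a continuum. The 3 weakest members, in introns of MX1, TNNT1 and UGT8, had strengths of 20.0041, 20.0041 and 20.0072. The 3 sites just below it that met the rest of the rule had 19.9957, 19.9923 and 19.9899, and none of these 6 had a low-cell CTCF siRNA peak.

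The 3 members with the highest IMR90 CTCF siRNA values differed between the standard and low-cell libraries. The site 2253 bp from EPOP (chr17:36833196-36833744) measured 35.6 and 40.5 before and 51.6 and 42.0 after CTCF siRNA, but its low-cell value was 3.13 in 1 control list with no peak in the other 3. The site near SMOX (chr20:4089263-4089872), with 55.3 and 59.0 before and 45.5 and 47.7 after, had low-cell control peaks of 16.1 and 13.6 and none after CTCF siRNA. The site near KAZN (chr1:15454970-15455453) measured 23.3 and 32.2 before and 47.3 and 38.3 after, and was one of the 26 members with peaks in all 4 low-cell lists (12.8 and 9.76 in control, 7.14 and 4.34 after CTCF siRNA). It had an exact motif match.

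At the ends of the LNCaP to IMR90 range, the SMOX site (0.433), a site 108 bp from DDX56 (0.448) and one in an intron of MTMR3 (0.454) were bound more in IMR90. The DDX56 site at chr7:44605057-44605647 had H3K27ac in both LNCaP control lists and neither CTCF siRNA list. The highest ratios were 5.18 at a site on chromosome 8 lying 143592 bp from the nearest protein-coding gene, 4.28 near BCAN and 4.18 in MORN1. The BCAN site (chr1:156629510-156630325) had low-cell peaks of 10.3 and 18.6 before and 9.52 and 5.79 after CTCF siRNA, yet its LNCaP control values were far apart, at 39.9 and 10.8. The MORN1 site (chr1:2313143-2313803) measured only 3.74 and 7.71 in IMR90 control cells and 12.9 and 9.57 after CTCF siRNA.

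Members were then located near genes of 6 lists, counting a gene when a member's summit was in its body or within 10000 bp. Of 24 prostate luminal and androgen-response genes, 6 had a member, among them CDH1, FKBP5, SLC45A3 and TMPRSS2, and 6 of the 11 strong IMR90-bound sites near the list were members (54.5%), against 34.7% of the 4925 strong sites near any protein-coding gene. None of the kallikrein genes KLK2, KLK3 and KLK4 had one. The SLC45A3 site, beside a prostate-specific transporter gene, measured 39.2 and 51.2 in LNCaP control cells and 37.7 and 27.5 in IMR90 control cells, with 28.2 and 33.5 after CTCF siRNA in IMR90. The site within 10000 bp of FKBP5, a co-chaperone of steroid receptors, measured 17.6 and 31.9 in LNCaP, and the intronic site in CDH1, the epithelial cadherin, 22.6 and 26.0, with H3K27ac in all 4 LNCaP lists. The SLC45A3, FKBP5, CDH1 and TMPRSS2 sites had no low-cell CTCF siRNA peak. The TMPRSS2 site is the one named above in an intron of MX1, with a strength of 20.0041. For the FKBP5 site the nearest protein-coding gene was ARMC12, 536 bp away.

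Of 24 fibroblast and mesenchymal genes, 2 had a member, FBN1 (fibrillin) and PDGFRA (a growth factor receptor), and 2 of 12 strong sites were members (16.7%). The FBN1 site had 15.8 and 18.5 in IMR90 control cells and 5.12 and 5.01 after CTCF siRNA, a ratio of 0.296. The PDGFRA site kept a low-cell peak of 6.55 in CTCF siRNA replicate 1. Of 19 CTCF and cohesin genes, 4 had a member, among them MAU2, SMC3 and ZNF143, and 4 of 8 strong sites near the list were members (50.0%). MAU2 is a cohesin loader and SMC3 a ring subunit, and the SMC3 site measured 24.3 and 22.5 in LNCaP and 22.7 and 23.4 in IMR90 control cells, then 10.5 and 15.0 after CTCF siRNA in IMR90. Of 22 imprinted genes, 3 had a member (CDKN1C, GNAS and INPP5F), and 3 of 14 strong sites were members (21.4%). The INPP5F and CDKN1C sites each kept a low-cell peak in CTCF siRNA replicate 1 (4.69 and 5.71) and none in replicate 2.

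None of the 39 homeobox cluster genes had a member, although 5 strong IMR90-bound sites lay near 16 of them. A single member in a UTR of the gamma protocadherin cluster (chr5:140891676-140892443) accounted for all 22 of the 53 clustered protocadherin genes counted, because those genes share that end. It measured 23 and 33.2 in LNCaP control cells and 21.1 and 16.7 before and 9.26 and 12 after CTCF siRNA in IMR90, with an exact motif match. Over all 20090 protein-coding genes, 11.0% had a member. Each list rests on 14 strong sites or fewer, and none was tested against that background.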

How the data were processed

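CTCF, H3K27ac and H3K4me3 ChIP-seq peak lists were analysed as deposited, on hg19 per the labels. The authors aligned standard reads with Bowtie, removed ambiguous and clonal reads and called CTCF peaks per library with MACS2 at a q-value of 0.05. Low-cell reads were trimmed with cutadapt, aligned with BWA, collapsed by molecular identifier and passed to MACS2. Histone regions came from PeakRanger. Each CTCF list as deposited gives a fold enrichment ratio and −log10 p-value and q-value for every peak, and the deposited histone lists give a score, with lower taken as stronger. Replicates were not pooled. The deposited files hold no read counts per site, so no count model was used. Read totals are stated by the study for each library, but peaks were not recalled at equal depth, and an absent peak cannot be told from a shallow one.

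Peaks on chromosomes 1 to 22 and X were merged when they overlapped by 1 bp or more, and the same overlap counted as shared. Shares between treatments were compared by two-sided exact permutation over libraries, and shares of sites carry 95% Wilson intervals. Genes came from GENCODE release 44 mapped to GRCh37, all peaks lying within its chromosome lengths. Motifs were searched in the same sequence, and the site, motif and permutation steps were tested on simulated data. Python 3.11, numpy, pandas, scipy and matplotlib were used.

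The sites, comparison classes and gene lists were chosen with earlier results of these data known. Named sites were the 12 strongest members, 3 on each side of the threshold, the 3 highest in IMR90 CTCF siRNA, the 3 at each end of the LNCaP to IMR90 ratio and up to 3 per gene list by strength. Printed sequences left out exonic sites, and some named sites and genes are not reported here. Replicate numbers were not treated as pairs in the main tests. The replicate differences of control and CTCF siRNA lists correlated at -0.01 (low-cell), 0.0 (H3K27ac) and 0.15 (H3K4me3) over sites. Such correlations cannot show whether libraries of the same number came from one experiment, so results with the replicate number as a block are given below.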

Additional observations from a re-analysis of the deposited data

How the results depend on the processing

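The count of 2241 members was 2233 to 2255 with stricter overlap, with summits within 100 bp or with a q-value of 0.001. It was 4416, 934 and 368 at strengths of 15, 25 and 30, and 1349 with strength as the lower of both control files. It was 368 with IMR90 CTCF siRNA lists shortened to the LNCaP lengths and 216 with all 8 lists at the shortest length. Kept in both low-cell CTCF siRNA lists in place of the standard ones, 26 sites met the rule, and 202 when kept in at least 1 (both chosen after the data were seen). Leaving out 1 library gave 1585 to 4281, the highest without LNCaP CTCF siRNA replicate 2. The low-cell difference of -85.0 kept its sign in every alternative, from -88.8 to -81.3 with 1 library left out and down to -13.4 with shortened control lists. The H3K27ac difference of 1.81 ran from -0.803 to 4.42 and the H3K4me3 difference of 0.245 from -2.12 to 2.61 with 1 library left out, changing sign without CTCF siRNA replicate 2 for both marks (-0.803 and -2.12) and without control replicate 1 for H3K4me3 (-1.29), and the cause was not tested. With the replicate number as a block the differences were -85.0, 1.81 and 0.245 (exact p = 0.50, 1.00 and 1.00), and neither form of the test can pass 0.05 with these libraries. The motif share was 51.5% with up to 1 mismatch, 15.3% with 0 and 80.7% within 50 bp. The promoter share was 5.04% within 500 bp, 14.6% within 2500 bp and 3.75% for protein-coding genes. Depth limits every absent peak, and the smallest p for 2 libraries against 2 is 0.33.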
